A study of Zea mays with 2 samples.

Results

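In maize endosperm 15 days after pollination, 105 loci had at least 10 FPKM in the defective-kernel mutant dek10 and below 1 FPKM in wild type. They are called dek10-high loci here. FPKM is the abundance of RNA fragments scaled by transcript length and library size. The 105 loci were chosen by these values from 41246 rows that lie on chromosomes 1 to 10, span at least 200 bp and have coordinates listed only once, out of 53679 rows in all. Each row is labelled with a position, and its span is its end minus its start in the files, introns included. The study holds 1 sample of dek10 endosperm and 1 sample of wild-type endosperm, both taken from the kernel at the same age. The design text speaks of triplicates, but there is 1 column of FPKM per genotype, and whether it stands for a single library or for several was not given in the sources used here. The genetic background, the dek10 allele and its origin were not given either. With 1 sample per genotype there is no replicate error, no test and no p-value, and every difference below is a difference between 2 samples.

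Endosperm is the triploid storage tissue of the kernel, which fills with starch and with the zein storage proteins during the weeks after pollination. Defective kernel mutants are a large class of maize mutants whose kernels develop poorly. The product of the dek10 gene belongs to the pentatricopeptide repeat family, whose members bind organelle RNA, and it acts in C-to-U editing of mitochondrial transcripts. The loci described here are nuclear and were picked by level alone. No gene name or function is attached to them, because the files give positions in B73 RefGen_v3 only and 0 of the 105 have both ends equal to a gene in the reference table, which describes another assembly. Endosperm markers could not be looked up for the same reason, and the labelled tissue was not checked here. No sequence is shown, since a genome of that build was not used here.

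The 105 loci are 1.17% of the 8939 eligible rows with at least 10 FPKM in dek10 and 0.255% of all 41246 eligible rows. The rule used this contrast, so the share describes the choice and shows nothing more. Their dek10 level ran from 10.2 to 1055 FPKM with a median of 16.3 FPKM, and the middle of the list was narrow, with quartiles at 12.05 and 24.1 FPKM. Most of the loci are therefore modestly expressed, and 7 reached 100 FPKM. In wild type, 46 were listed at 0, 8 lay above 0 and below 0.1 FPKM, 32 lay between 0.1 and 0.5 FPKM and 19 between 0.5 and 1 FPKM. For the 59 loci above 0 in wild type, the ratio of dek10 to wild-type FPKM ran from 12.1 to 8213 with a median of 67.4. No ratio is given for the loci listed at 0. Together the 105 loci summed to 4788 FPKM in dek10, which is 0.420% of that sample's total, and to 21.9 FPKM in wild type.

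**Figure D1:**
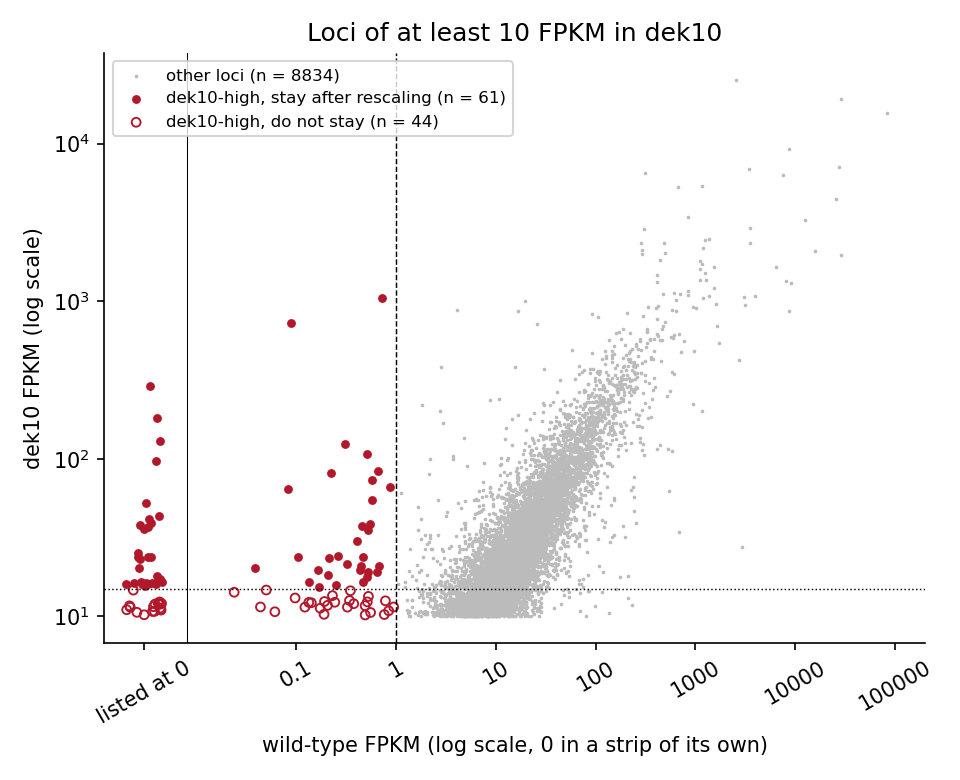
Each point is an eligible locus of at least 10 FPKM in dek10, with wild-type FPKM on the x axis and dek10 FPKM on the y axis, both on log scales, and loci listed at 0 in wild type in a strip at the left, spread sideways for visibility. The dashed line marks 1 FPKM in wild type and the dotted line the 15.0 FPKM a locus needs to stay at 10 FPKM after rescaling; 61 dek10-high loci (filled) lie above it and 44 (open) below.

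The summed level rested on few loci. The locus on chromosome 1 at 270268846 to 270270776, with a span of 1931 bp, had 1055 FPKM in the mutant and 0.726 FPKM in wild type, and ranked 49 among the eligible rows of the dek10 sample. Second came the locus on chromosome 6 at 14305953 to 14307860, with a span of 1908 bp, 732 FPKM in the mutant and 0.0892 FPKM in wild type. It ranked 71. These 2 loci held 37.3% of the dek10 sum of the list, and the 12 highest held 63.1%.

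Among the next highest, wild-type values at 0 went mostly with short spans. On chromosome 2, the locus at 127759360 to 127759695 had 290 FPKM in the mutant and was listed at 0 in the other sample, over a span of 336 bp. On chromosome 1, the loci at 216840615 to 216840838 and 126111384 to 126111716, of 224 bp and 333 bp, had 181 FPKM and 97.4 FPKM in dek10, and both had a wild-type value of 0. On chromosome 4, 129 FPKM was reached in dek10 at 167942332 to 167943270, over 939 bp, and wild type was again listed at 0. These 4 are the only loci among the 12 highest with a wild-type value of 0.

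The other loci among the 12 highest had a low positive value in wild type. On chromosome 9, the locus at 108228878 to 108230282 had 124 FPKM in the mutant and 0.307 FPKM in wild type, and the locus at 134973689 to 134974579 had 73.7 FPKM and 0.575 FPKM. On chromosome 2, the locus at 230254990 to 230256292 had 108 FPKM in the mutant and 0.514 FPKM in wild type, and the locus at 12345073 to 12348033 had 81.2 FPKM and 0.222 FPKM. All 4 were more than 100-fold higher in dek10, by FPKM ratios of 404, 128, 210 and 366 in that order. On chromosome 1, the locus at 281584456 to 281586378 had 83.3 FPKM in the mutant and 0.665 FPKM in wild type. At 97278294 to 97280551 on chromosome 6 the values were 66.1 FPKM in the mutant and 0.882 FPKM in wild type, the second-highest wild-type value of the list.

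On the remaining chromosomes the highest dek10-high locus was lower. Chromosome 8 had 64.6 FPKM in the mutant and 0.0822 FPKM in wild type at 145233165 to 145235264. Chromosome 3 had 38.3 FPKM at 55885027 to 55887445 and chromosome 5 had 25.4 FPKM at 69124364 to 69125137, both listed at 0 in wild type. Chromosome 7 had 20.9 FPKM in the mutant and 0.682 FPKM in wild type at 52269232 to 52270274, and chromosome 10 had 17.8 FPKM and 0.508 FPKM at 4268936 to 4269719. The highest value of a chromosome thus ran from 17.8 to 1055 FPKM in dek10.

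Values just inside and just outside the thresholds lay close together. Just inside the dek10 minimum were 10.2 FPKM at 62493047 to 62493811 on chromosome 1, 10.2 FPKM at 60364446 to 60364788 on chromosome 2 and 10.3 FPKM at 164811512 to 164812305 on chromosome 7. Just outside it were 9.78 FPKM at 196020283 to 196021884 on chromosome 5, 9.73 FPKM at 70047836 to 70048549 on chromosome 8 and 9.72 FPKM at 244817584 to 244818566 on chromosome 1, all below 1 FPKM in wild type. On the wild-type side, the highest included value was 0.949 FPKM, at 267840657 to 267842009 on chromosome 1 with 11.5 FPKM in dek10. The lowest left out was 1.06 FPKM, at 96632064 to 96633476 on chromosome 10 with 16.0 FPKM in dek10. On chromosome 7, the locus at 164603766 to 164605241 stayed outside with 1.11 FPKM in wild type, although its dek10 level was 61.0 FPKM. In all, 51 eligible loci of at least 10 FPKM in dek10 had 1 to 2 FPKM in wild type, including both of these.

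The number of dek10-high loci depended on how the samples were put on a common scale. Over the 27954 rows that had at least 1 FPKM in at least 1 sample and were above 0 in both, the median ratio of dek10 to wild type was 1.498, or 0.58 on the log2 scale. Dividing the dek10 values by that ratio left 61 of the 105 loci, or 58.1%, at 10 FPKM or more. The 44 that dropped out had 10.2 to 14.7 FPKM as deposited, and a locus had to reach 15.0 FPKM to stay. Of the 61 that stayed, 29 were listed at 0 in wild type. All 12 of the highest loci stayed.

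The opposite pattern, at least 10 FPKM in wild type and below 1 FPKM in dek10, was met by 43 loci as deposited, 0.617% of the 6970 eligible rows with at least 10 FPKM in wild type. After dek10 was divided by the median ratio it was met by 60, since 17 more loci then fell below 1 FPKM in dek10. The excess of 105 over 43 thus became 61 against 60, and the shares became 0.899% of 6782 loci and 0.861% of 6970. Multiplying the wild-type values by the same ratio instead, so that the 1 FPKM limit bears on the rescaled wild type, gave 98 against 88. The 10 FPKM limit then bears on the rescaled wild type too, so the 88 come from a larger pool than the 6970 loci. The shares on this scale were not computed. Of the 43 wild-type-high loci, the wild-type median was 13.8 FPKM, the highest had 1163 FPKM, and 19 of them, or 44.2%, were listed at 0 in dek10, beside 43.8% of the dek10-high loci listed at 0 in wild type.

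**Figure D2:**
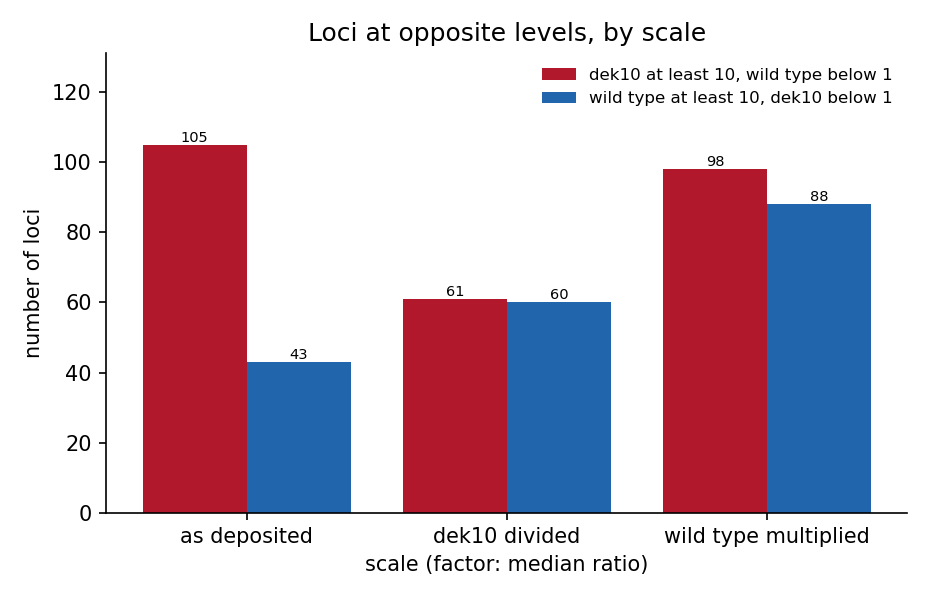
Bars give the number of loci with at least 10 FPKM in 1 sample and below 1 FPKM in the other, for dek10-high loci (red) and wild-type-high loci (blue), on the deposited scale, with dek10 divided by the median ratio and with wild type multiplied by it. The counts are 105 and 43 as deposited, 61 and 60 with dek10 divided, and 98 and 88 with wild type multiplied.

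The dek10-high loci had short spans. Span is not independent of the rule, which set a 200-bp minimum and used FPKM, a value scaled by length. Their median span was 1058 bp, against 3952 bp for the other 8834 eligible loci with at least 10 FPKM in dek10, and 47 of them, or 44.8%, were under 1000 bp, against 10.4% of the others. The share of loci of at least 10 FPKM in dek10 that were dek10-high was 10.4% at 200 to 300 bp and 5.53% at 300 to 500 bp. It was 3.36% at 500 to 1000 bp and 3.35% at 1000 to 2000 bp, and then 0.581% at 2000 to 5000 bp and 0.0630% at 5000 bp and more. The wild-type-high loci followed a like order, from 6.80% at 200 to 300 bp to 0.0383% at 5000 bp and more, with a median span of 807 bp. Rescaling changed which share was larger in some classes. At 200 to 300 bp the dek10-high and wild-type-high shares became 10.1% and 7.77%, and at 300 to 500 bp 5.17% and 4.76%. They became 2.06% and 4% at 500 to 1000 bp, and 2.67% and 1.85% at 1000 to 2000 bp. At 2000 to 5000 bp they were 0.414% and 0.307%, and at 5000 bp and more 0.0413% and 0.153%. The order changed at 500 to 1000 bp and at 5000 bp and more. In these classes 9 and 1 dek10-high loci were left, so their shares rest on few loci.

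**Figure D3:**
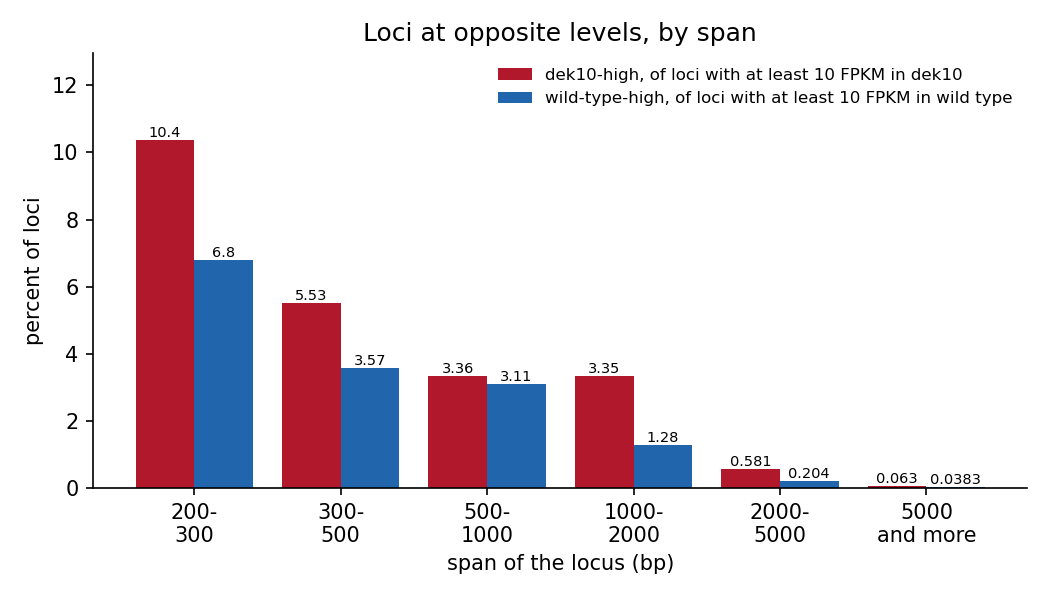
The x axis gives classes of span in bp and the y axis the percent of loci with at least 10 FPKM in 1 sample that had below 1 FPKM in the other, for dek10-high loci (red) and wild-type-high loci (blue). Shares are on the deposited scale, before rescaling. Both shares are highest at 200 to 300 bp (10.4% and 6.80%) and lowest at 5000 bp and more (0.0630% and 0.0383%).

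The lowest positive value in a sample also changed with span. Among eligible rows of 200 to 300 bp, the lowest positive wild-type FPKM was 0.574, 49.0% were listed at 0 in wild type, and 40 of 919 lay above 0 and below 1 FPKM. At 1000 to 2000 bp the lowest positive wild-type value was 0.0186, 26.9% were listed at 0, and 3963 of 9350 lay above 0 and below 1 FPKM. All 14 dek10-high loci of 200 to 300 bp were listed at 0 in wild type, as were 9 of 13 at 300 to 500 bp. So were 11 of 20 at 500 to 1000 bp, 9 of 34 at 1000 to 2000 bp, 2 of 22 at 2000 to 5000 bp and 1 of 2 at 5000 bp and more. Of all eligible rows, 45.4% were listed at 0 in wild type at 300 to 500 bp and 37.8% at 500 to 1000 bp. The shares were 15.0% at 2000 to 5000 bp and 9.32% at 5000 bp and more. A wild-type value of 0 in a short locus is therefore a coarser measurement than one in a long locus, and the number of reads behind the values is unknown. The part of this coarser scale in the choice of short loci was not tested.

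The shortest dek10-high loci were on chromosomes 1 and 2, all listed at 0 in wild type. Those of 200 bp and 217 bp, at 220890956 to 220891155 and 206279447 to 206279663 on chromosome 2, had 16.6 FPKM and 23.1 FPKM in dek10. Those of 201 bp and 213 bp, at 148066390 to 148066590 and 189318912 to 189319124 on chromosome 1, had 16.1 FPKM and 11.3 FPKM. The longest had levels just as modest, mostly with a positive value in wild type. On chromosome 2, the locus of 5515 bp at 102470112 to 102475626 had 11.7 FPKM in the mutant and 0.491 FPKM in wild type, and the locus of 4549 bp at 67338727 to 67343275 had 37.7 FPKM and 0.462 FPKM. At 299692845 to 299697797 on chromosome 1, over 4953 bp, the values were 13.1 FPKM and 0.0976 FPKM. The locus of 5262 bp on chromosome 5 at 177296333 to 177301594 had 16.3 FPKM in the mutant and was listed at 0 in wild type.

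By level, dek10-high loci were 1.85% of the 3562 eligible loci with 10 to 20 FPKM in dek10, and 0.746% of 3217 at 20 to 50 FPKM, 0.657% of 1217 at 50 to 100 FPKM and 0.742% of 943 at 100 FPKM and more. Above 20 FPKM the share thus stayed near the same value. The wild-type-high loci were 0.930% of 3225 loci with 10 to 20 FPKM in wild type, 0.274% of 2559 at 20 to 50 FPKM, 0.556% of 719 at 50 to 100 FPKM and 0.428% of 467 at 100 FPKM and more.

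Chromosomes 1 and 2 carried 50 of the 105 dek10-high loci, or 47.6%, and 27.9% of the eligible loci with at least 10 FPKM in dek10. Chromosome 1 had 30 of 1468 such loci and chromosome 2 had 20 of 1030, which are 2.04% and 1.94%. On chromosomes 3 to 10 the share ran from 0.521% on chromosome 3, with 5 of 960, to 1.10% on chromosome 5, with 12 of 1093, and 55 of 6441 in all, or 0.854%. The grouping of chromosomes 1 and 2 was made after these values were seen. It held in both classes of span: under 1000 bp, 23 of 292 loci on chromosomes 1 and 2 were dek10-high against 24 of 674 elsewhere, and at 1000 bp and more 27 of 2206 against 31 of 5767. After rescaling, 31 of the 61 loci left lay on these chromosomes. Of the 43 wild-type-high loci, 15 did, or 34.9%, beside 27.9% of the loci with at least 10 FPKM in wild type.

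**Figure D4:**
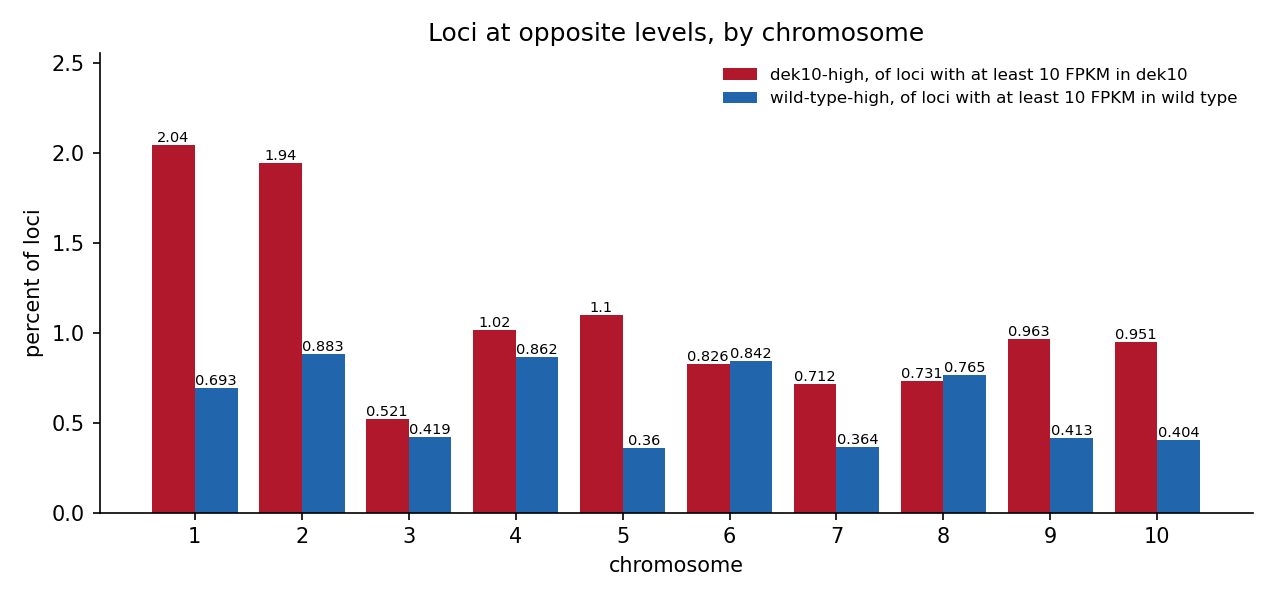
The x axis gives the chromosome and the y axis the percent of loci with at least 10 FPKM in 1 sample that had below 1 FPKM in the other, for dek10-high loci (red) and wild-type-high loci (blue). The dek10-high share is 2.04% on chromosome 1 and 1.94% on chromosome 2 and lies between 0.521% and 1.10% on the others.

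Within chromosomes the dek10-high loci were scattered. Of 210 windows of 10 Mb that held an eligible locus of at least 10 FPKM in dek10, 128 held no dek10-high locus, 66 held 1, 11 held 2 and 5 held 3 or more. The highest number in a window was 4, reached on chromosome 1 between 10000001 and 20000000 (4 of 85 loci) and on chromosome 2 between 230000001 and 240000000 (4 of 69 loci). The median gap between consecutive dek10-high loci on a chromosome was 14563 kb, and 2 of 95 gaps were under 1 Mb. With gaps of up to 50 kb counted as a run, 1 run formed. It lay on chromosome 2, where the loci at 237075877 to 237076861 and 237122263 to 237122958 had 11.5 FPKM and 12.3 FPKM in the mutant and 0.122 FPKM and 0.244 FPKM in wild type, and neither stayed after rescaling. The wild-type-high loci also formed 1 run of 2 loci, on chromosome 2 at 6973267 to 6976610. A wild-type-high locus lay in 15 of the 82 windows with a dek10-high locus, or 18.3%, and in 21 of the 128 without one, or 16.4%, so the 2 kinds shared windows at about the background share.

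Among the nearest eligible rows on both sides of the dek10-high loci, 210 in all, 105 had less than 1 FPKM in both samples and cannot reach a 2-fold difference on the log2(FPKM + 1) scale. Of the other 105 neighbours, 29 were at least 2-fold higher in dek10 on that scale, 4 at least 2-fold lower and 72 between. The higher rows are 27.6% of these 105, beside 23.3% of 10484 such neighbours of all eligible loci with at least 10 FPKM in dek10. Over all 210 the higher share, 13.8%, was near the 13.7% of 17875 neighbours of all eligible loci with at least 10 FPKM in dek10, and the lower share was 1.90% beside 3.31%. The median log2 ratio was 0.18, beside 0.20 for those other neighbours. All these values use FPKM as deposited. With dek10 divided by the median ratio, the higher share was 6.67%, beside 4.93%. Of the 210, 0 were dek10-high or wild-type-high, but such loci made up only 0.246% and 0.0895% of the 17875, so the 0 is near the background. At least 1 FPKM in at least 1 sample was reached by 105 of the 210 neighbours, beside 58.7% of the neighbours of all such loci. At least 1 neighbour had 1 FPKM or more in wild type at 66 of the 105 loci, and 25 loci had both neighbours below 1 FPKM in both samples. The matching counts per locus for all eligible loci of at least 10 FPKM in dek10 are not given. Whether these 2 counts are unusual is therefore not known.

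Within 2 kb, again on FPKM as deposited, 10 of 55 neighbours were at least 2-fold higher in dek10 and 0 were 2-fold lower. The higher share was 18.2%, beside 15.4% of 3801 neighbours at that distance from all eligible loci of at least 10 FPKM in dek10. At least 1 FPKM in at least 1 sample was reached by 26 of the 55, or 47.3%, beside 66.6% of the 3801. Among such rows, which alone can reach a 2-fold difference, 10 of 26 were higher, beside 585 of 2530. This difference was not tested. Of those 3801, only 3.16% were at least 2-fold lower, so the 0 of 55 is near the background. On chromosome 6, the locus with 732 FPKM in dek10 was followed, 992 bp further on, by a row at 14308853 to 14309541 with 4.68 FPKM in the mutant and a wild-type value of 0. On chromosome 2, the locus at 60364446 to 60364788 reached 10.2 FPKM in dek10, and 775 bp after it a row at 60365564 to 60365806 had 6.79 FPKM, with 0 in wild type for both. On chromosome 1, the locus at 19084084 to 19084560 had 16.5 FPKM in the mutant and 0.467 FPKM in wild type, and 269 bp before it a row at 19081683 to 19083814 had 30.8 FPKM and 5.43 FPKM. These pairs were picked after their values were seen.

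Neighbours of some other dek10-high loci had at least 1 FPKM in both samples. On chromosome 1, the locus with 1055 FPKM in dek10 had its nearest rows 66.6 kb before it, with 7.79 FPKM in the mutant and 4.48 FPKM in wild type, and 41.1 kb after it, with 3.25 FPKM and 1.43 FPKM. On chromosome 2, the locus at 230254990 to 230256292, whose dek10 level was 108 FPKM, was flanked by rows with 11.7 FPKM in the mutant and 8.67 FPKM in wild type before it and 15.9 FPKM and 8.004 FPKM after it, the latter 143 bp away. On chromosome 4, the locus at 188546466 to 188546774 had 20.3 FPKM in the mutant and 0 in wild type, while the row 42.6 kb before it had 2.31 FPKM in the mutant and 17.3 FPKM in wild type. A locus with both neighbours at least 2-fold higher was found once, on chromosome 10 at 4268936 to 4269719. Its neighbours had 6.90 FPKM and 4.02 FPKM in the mutant but were below 1 FPKM in wild type, at 0.728 FPKM and 0.255 FPKM.

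**Figure D5:**
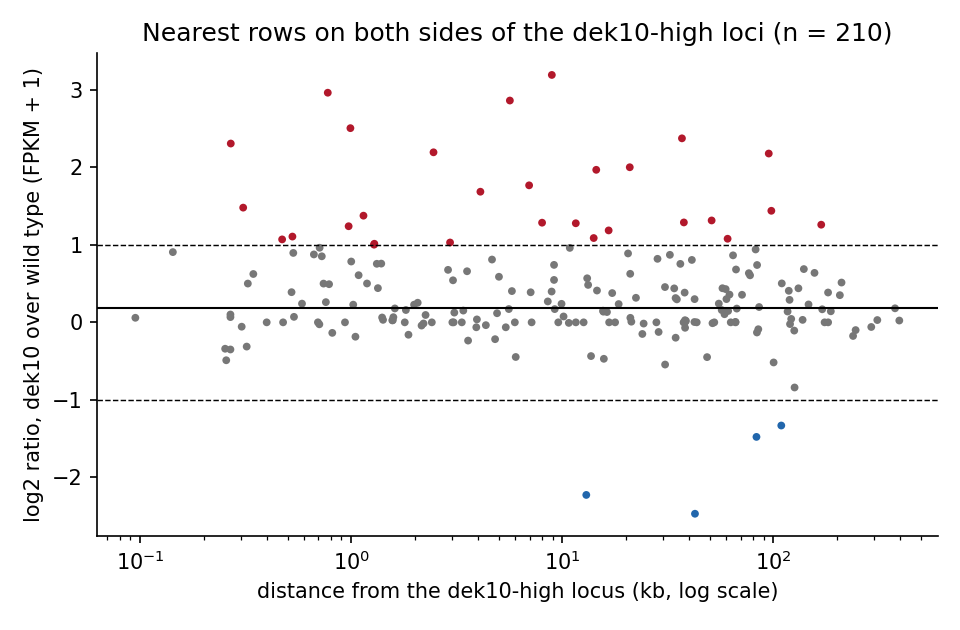
Each point is the nearest eligible row before or after a dek10-high locus, with its distance in kb on a log x axis. The y axis gives its own log2 ratio of dek10 over wild type, computed on FPKM + 1 before rescaling. Dashed lines mark a 2-fold difference and the solid line the median of 0.18; 29 of 210 rows (red) lie at or above the upper line and 4 (blue) at or below the lower one.

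The rule left out 202 further rows with the same levels, for their span, their chromosome or their shared coordinates. In all, 307 rows had at least 10 FPKM in the mutant and below 1 FPKM in wild type. Of these, 3 were off chromosomes 1 to 10, 128 were under 200 bp, and 71 had a span of at least 200 bp but shared their coordinates with another row. All 128 short rows were listed at 0 in wild type, and the highest of them had 6320 FPKM in dek10. Among eligible rows of 200 to 300 bp the lowest positive wild-type value was already 0.574 FPKM, so 0 in a shorter row is a coarse measurement. Without a minimum span 113 loci were wild-type-high, and with shared coordinates kept 74 were, beside 43 under the rule. The share that the short and shared rows make up of all rows of their kind was not computed.

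The 71 rows with shared coordinates fell on 67 positions, and at most of these the position as a whole reached 1 FPKM in wild type. Summed over all rows at a position, wild type was below 1 FPKM at 21 positions, between 1 and 10 FPKM at 29 and at least 10 FPKM at 17. On the log2(FPKM + 1) scale, as deposited, the sum was at least 2-fold higher in dek10 at 65 of the 67. These positions were chosen through a row high in dek10, so that count describes the choice in part. On chromosome 4 at 199253963 to 199255236, for instance, 1 row had 524 FPKM in the mutant and was listed at 0 in wild type, but the position's sum was 837 FPKM in the mutant and 180 FPKM in wild type. At 3 of the 4 highest of these positions the sum stayed below 1 FPKM in wild type. The position on chromosome 7 at 148962512 to 148969683 gave sums of 5737 FPKM in the mutant and 0 in wild type, that on chromosome 3 at 126543137 to 126549231 to 2457 FPKM and 0, and that on chromosome 8 at 145068243 to 145074450 to 1669 FPKM and 0.649 FPKM. The spans of these positions, 7172, 6095 and 6208 bp, exceeded that of every dek10-high locus. Each position is shared by 2 rows, so the length behind the high row alone is not known. With rows summed per position, an alternative chosen after seeing the data, 127 positions were dek10-high and 54 wild-type-high, and after rescaling 75 and 75.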

How the data were processed

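The authors deposited 1 table of FPKM values per genotype, per the file headers, with 53679 rows carrying the same coordinates in the same order in both, and rows were paired by that order. The submitters' processing notes name Bowtie 0.12.2 and B73 RefGen_v3. The quantification program, annotation, filters and read depth are not given in the labels or headers used here, so no counting interval is given and a value of 0 is only listed at 0. The FPKM totals were 1140726 for dek10 and 1167393 for wild type. Printed starts are the deposited ones plus 1, because the lowest start in the files is 0. Rows at distinct positions on chromosomes 1 to 10 did not overlap. Named loci are the 12 highest, the 4 longest and 4 shortest, those in runs, the highest per chromosome and up to 3 on each side of each threshold. Others were chosen after their values were seen. The loci and lists were chosen with earlier results of these data known. The selection and rescaling steps were run on simulated data with loci planted well inside the thresholds. That checks the steps as coded and does not show how well they work on 2 real samples. Python 3.11.15, numpy 2.4.6, pandas 2.3.3 and matplotlib 3.10.9 were used.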

Additional observations from a re-analysis of the deposited data

How the results depend on the processing

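Of 49 alternatives, 23 stayed within a factor of 1.5 and 26 moved. Most that moved are stricter or looser by construction. Some rescalings are counted more than once, among those that moved when set beside 105 and among those that stayed when set beside 61. Scaling by the median ratio over considered or eligible rows or by the total without the 50 most abundant rows left 61 dek10-high loci, and by the upper quartile 63. Dek10-high and wild-type-high loci, 105 and 43, became 260 and 134 at a minimum of 5 FPKM, 39 and 13 at 20 FPKM, 54 and 21 below 0.1 FPKM in the other sample, and 46 and 19 listed at 0 there. They became 232 and 113 without a minimum span, 58 and 16 at 1000 bp, and 176 and 74 with shared coordinates kept. With wild type multiplied instead of dek10 divided, 98 loci stayed in place of 61. With gaps of up to 20 kb, 0 loci lay in runs. The share of neighbours at least 2-fold higher, 13.8%, was 27.6% among neighbours of at least 1 FPKM, 6.67% after median-ratio scaling, 28.1% at a pseudocount of 0.1 and 4.76% at a pseudocount of 5; the same settings gave 23.3%, 4.93%, 28.2% and 5.75% around all eligible loci of at least 10 FPKM in dek10. The median span, 1058 bp, was 506 bp for loci listed at 0 in wild type and 1806 bp for the others. No paired analysis was possible because there is 1 sample per genotype, and for the same reason no sample was left out. How many reads lie behind a value is unknown.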
